A study of Mus musculus with 36 samples.

Results

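The transcripts of 10 primitive endoderm genes were followed through RNA-seq of mouse embryonic stem cells (ESCs) and epiblast-like cells (EpiLCs) that lack subunits of Polycomb repressive complexes. The 10 genes were listed by symbol and matched to 10 of the 55401 gene IDs in the count files: the transcription factors Gata4, Gata6, Sox7, Sox17, Foxa2 and Hnf4a, and the membrane and uptake proteins Pdgfra, Dab2, Cubn and Amn. The rule was a list of names, with no threshold on a measured value. The data were 36 libraries in 12 groups of 3. All cells carried the strain label C57BL/6.

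In the EpiLC stage, J2KO cells (without JARID2) were set against J2WT cells, TKO cells (without the 3 PCL proteins PHF1, MTF2 and PHF19) and QKO cells (without these 3 and JARID2) against PclWT cells, and Pcgf2/4 KO cells against a line labelled WT. The same mutants and their controls, apart from the Pcgf2/4 KO pair, were also measured as ESCs. ESCs were kept in serum with LIF and inhibitors of GSK (3 µM) and MEK (1 µM). EpiLCs came from 2 days on fibronectin in activin A (20 ng/ml) and bFGF (12 ng/ml), which moves naive ESCs towards the state of the epiblast before gastrulation. JARID2 and the PCL proteins are alternative partners of PRC2, the complex that methylates lysine 27 of histone H3, and PCGF2 and PCGF4 (the product of Bmi1) are subunits of canonical PRC1. TKO and QKO share PclWT as their control, the J2 and PCL cells come from different lines, and the WT line of the Pcgf2/4 pair is not described further in the sources used here.

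Primitive endoderm is the second lineage to separate from the inner cell mass, under FGF signalling, and it forms the parietal and visceral endoderm of the yolk sac. GATA6 opens this program and opposes the epiblast factor NANOG. PDGFRA, SOX17, GATA4 and SOX7 follow it in the blastocyst, and HNF4A and FOXA2 act later in visceral endoderm. Cubilin (Cubn) and amnionless (Amn) form together the receptor cubam, through which visceral endoderm takes up proteins, and DAB2 is an endocytic adaptor of the same cells. Many of these genes are Polycomb targets in pluripotent cells. In a bulk sample, fewer cells that express a gene and less RNA per cell cannot be told apart.

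Counts in genes ran between 6784578 and 18026492 per library, with a median of 10472704.5, and the J2WT and J2KO libraries were the deepest. Levels are in CPM, counts scaled to one library total with TMM factors over all 36 libraries. Whole-gene counts of Mtf2 averaged 44.3 CPM in TKO EpiLCs, 36.7 CPM in QKO EpiLCs and 223 CPM in PclWT EpiLCs, and those of Phf1 0.123, 0.324 and 7.8 CPM in the same order. Phf19 averaged 2.43 CPM in TKO, 0.99 CPM in QKO and 3.04 CPM in PclWT EpiLCs, so its whole-gene count was little lower in TKO. Counts of Phf19, Jarid2, Pcgf2 and Bmi1 over the whole gene do not check an exon deletion. PclWT EpiLC replicate 1 stood apart: 1330 genes lay more than 2-fold from the mean of its other replicates, against 18 and 44 in those. QKO EpiLC replicate 2 had 4.15% of its counts in rRNA genes, against 0.426% and 0.358% in its other replicates. Markers of the EpiLC state were low in part of the EpiLC groups. Fgf5 averaged 3.99 CPM in TKO, 1.71 CPM in QKO and 0.896 CPM in PclWT EpiLCs, but 118 CPM in J2KO and 58.3 CPM in J2WT EpiLCs, and 19.8 CPM in Pcgf2/4 KO and 44 CPM in WT EpiLCs. The part that this has in the results below was not tested.

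Whether a group's 3 libraries stem from separate cultures is not given in the sources used here, and p-values then reflect only how far these libraries spread, a spread that may be technical. A gene was called where edgeR's quasi-likelihood test gave a log2 fold change beyond 1 in either direction with an adjusted p under 0.05, fitted over all genes with a mean normalised count of at least 15. A gene near 0 in one group enters such a fit only through the other group, so counts of called genes among those tested are a description. Count ratios, given mainly for genes below the count minimum or near 0 in the control, are ratios of summed counts per scaled library size. Their 95% exact binomial intervals cover counting error only.

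All 10 genes were expressed at low levels. TKO EpiLCs had the highest mean of the 12 groups for 8 of them. The share of all genes that were highest in TKO EpiLCs was not counted. Per kilobase of exon, Dab2 reached 5.97 RPKM there, Gata4 4.19, Gata6 4.18, Cubn 2.45, Pdgfra 1.61, Sox7 1.5, Sox17 1.16 and Foxa2 0.915 RPKM. Hnf4a was highest in J2WT ESCs at 1.44 RPKM, and Amn in PclWT ESCs at 3.69 RPKM. When the 12 group means of a gene were put in order, neighbours were often not separated. Libraries of adjacent groups overlapped at 5 of 11 steps for Gata4 and Gata6 and at 7 for Sox17, Dab2 and Cubn. They overlapped at 8 for Sox7, Hnf4a and Pdgfra, at 9 for Foxa2 and at 11 for Amn.

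**Figure D1:**
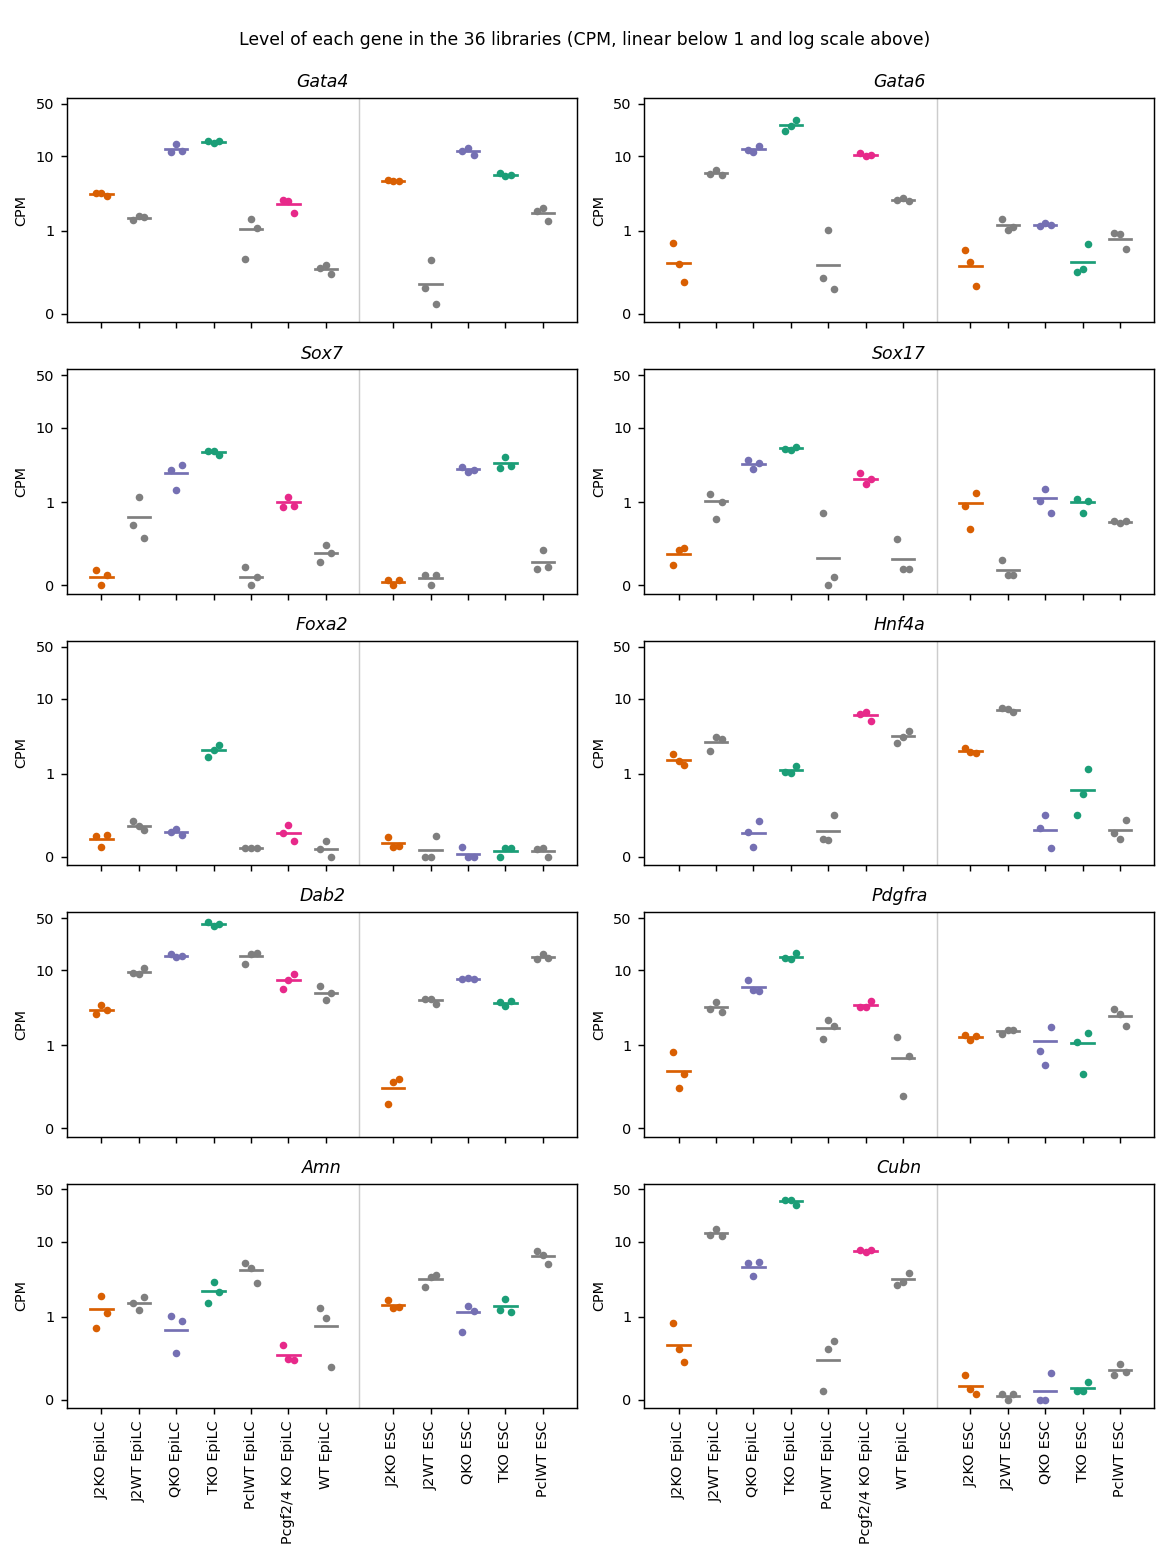
Levels of the 10 genes in CPM (symmetric log axis) in each of the 12 groups, EpiLC groups left of ESC groups. Points are libraries (3 per group) and bars are group means. TKO EpiLCs hold the highest mean for 8 of the 10 genes (share of all genes not counted), and Hnf4a and Amn peak in J2WT and PclWT ESCs.

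In TKO EpiLCs 7 of the 8 genes tested rose (Gata4, Gata6, Sox7, Sox17, Dab2, Pdgfra and Cubn) and Amn did not pass the test, where 14.1% of all genes tested were called. In QKO EpiLCs 5 of 7 rose (Gata4, Gata6, Sox17, Pdgfra and Cubn) and Amn fell, with 13.7% of all genes called. In J2KO EpiLCs 4 of 7 fell (Gata6, Dab2, Pdgfra and Cubn) and Gata4 alone rose, with 8.82% of all genes called. In Pcgf2/4 KO EpiLCs 3 of 5 rose (Gata6, Pdgfra and Cubn), with 5.83% of all genes called. The medians of the genes tested were 3.89, 3.21, -1.68 and 1.28 on the log2 scale in the order TKO, QKO, J2KO and Pcgf2/4 KO, and those of all genes tested -0.03, -0.03, 0.00 and 0.00.

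In ESCs fewer of the 10 genes reached the count minimum, and those that did moved in both directions. In TKO ESCs Gata4 and Sox7 rose and Dab2, Pdgfra and Amn fell, 5 of 5 tested, with 13.8% of all genes called. In QKO ESCs Gata4 rose and Pdgfra and Amn fell, 3 of 4 tested, with 13.9% of all genes called. In J2KO ESCs Gata4 rose and Hnf4a, Dab2 and Amn fell, 4 of 5 tested, with 13.3% of all genes called. QKO set against TKO directly had 2 of 3 genes called in ESCs, both higher (Gata4 and Dab2, background 4.53%), and 4 of 7 called in EpiLCs, all lower (Gata6, Dab2, Pdgfra and Cubn, background 4.84%). In EpiLCs the QKO libraries of each of the 10 genes lay under all TKO libraries, though Foxa2, Hnf4a and Amn were below the count minimum there. The share of all genes without overlap was not counted. Of 12762 genes tested in this comparison, 6656 had an unadjusted p under 0.05 (edgeR).

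The call counts of the PCL mutants do not rest on the library that stood apart. Without PclWT EpiLC replicate 1 the log2 fold changes in TKO EpiLCs were 3.57 for Gata4, 5.21 for Gata6, 6.19 for Sox7, 6.34 for Sox17, 1.26 for Dab2, 2.90 for Pdgfra, -0.76 for Amn and 5.68 for Cubn, with 7 genes called as before. Those in QKO EpiLCs were 3.26 for Gata4, 4.20 for Gata6, 5.69 for Sox17, -0.14 for Dab2, 1.58 for Pdgfra, -2.08 for Amn and 2.80 for Cubn, with 6 called as before. Leaving out QKO EpiLC replicate 2 instead gave 3.39, 4.39, 3.40, 0.03, 1.84, -2.10 and 3.38 for the same genes, again with 6 called.

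**Figure D2:**
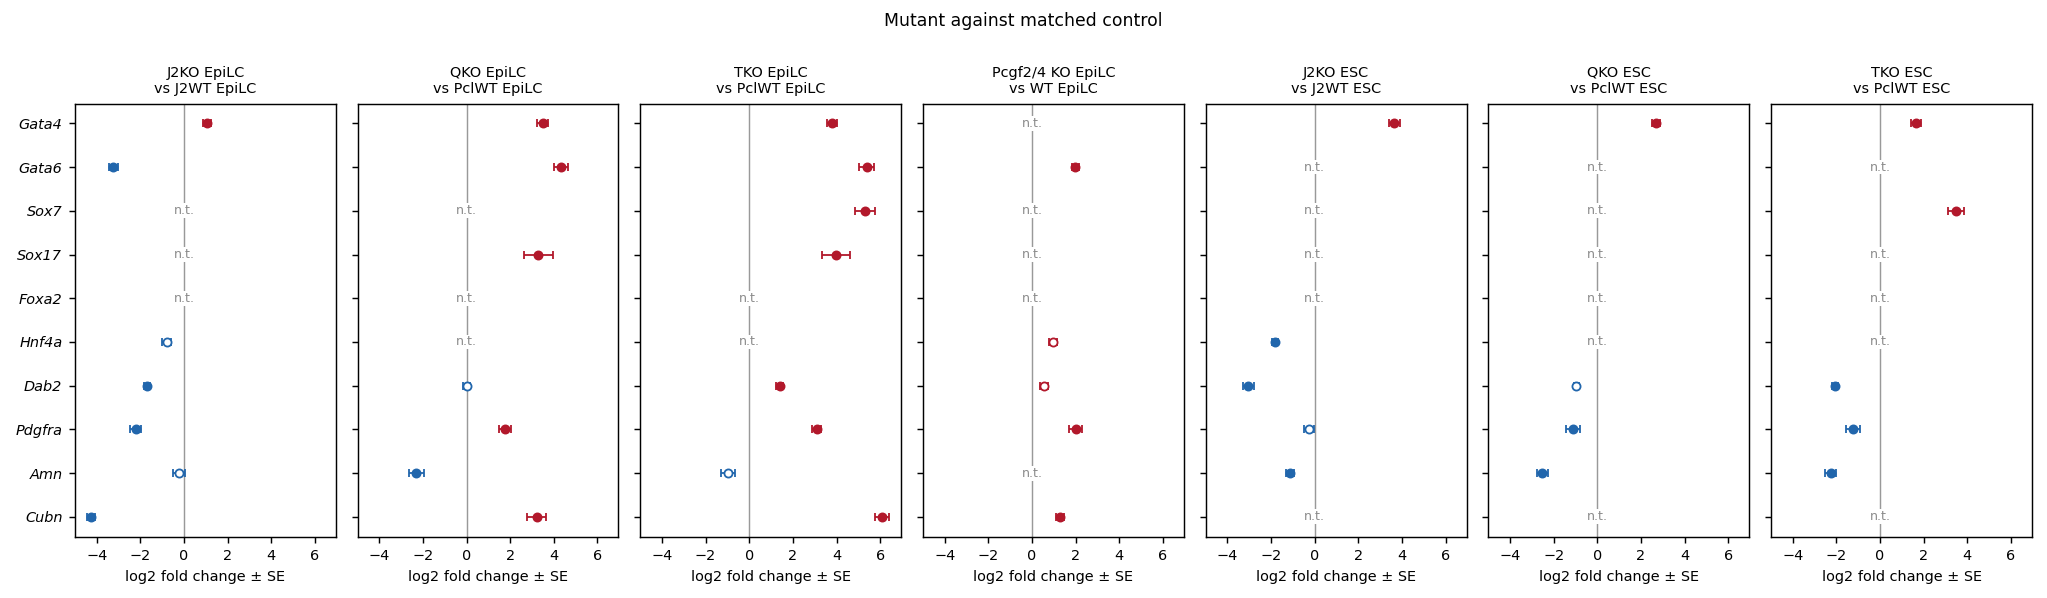
Log2 fold change of each gene in each mutant against its own control (edgeR quasi-likelihood test, bars are standard errors), EpiLC comparisons before ESC comparisons. Filled points were called, open points were not, and n.t. marks a gene below the count minimum. Gata6, Pdgfra and Cubn lie above 0 in TKO, QKO and Pcgf2/4 KO EpiLCs and below 0 in J2KO EpiLCs.

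Gata6 (ENSMUSG00000005836, chromosome 18, 11052064 to 11085635 on GRCm38, plus strand), the factor that opens the primitive endoderm program, was at or under 1.43 CPM in every ESC library. In TKO EpiLCs it had 21.5, 25.1 and 30.6 CPM, against 0.438, 1.02 and 0.3 CPM in PclWT EpiLCs. All 3 TKO libraries were far above the control, at a log2 fold change of 5.38 ± 0.34 (SE, edgeR, adjusted p = 0.000237), a 41.7-fold difference. In QKO EpiLCs it had 12.2, 11.5 and 13.5 CPM, which was 4.33 ± 0.32 above PclWT on the log2 scale (adjusted p = 0.000293, edgeR). QKO lay below TKO by -1.05 ± 0.12 (adjusted p = 2.06e-07, edgeR), with no overlap of the libraries, and the value was -0.9996 without QKO EpiLC replicate 2 and -0.93 without TKO EpiLC replicate 3, both inside the size threshold. Pcgf2/4 KO EpiLCs had 10.9, 9.89 and 10.3 CPM of Gata6, against 2.59, 2.74 and 2.52 CPM in WT EpiLCs, a log2 fold change of 2.00 ± 0.16 (adjusted p = 8.53e-12, edgeR). J2KO went the other way. Its EpiLCs had 0.859, 0.607 and 0.388 CPM, against 5.73, 6.56 and 5.55 CPM in J2WT EpiLCs, a log2 fold change of -3.23 ± 0.22 (adjusted p = 4.18e-13, edgeR). In ESCs, below the count minimum, the count ratio of J2KO to J2WT was 0.485 (0.297 to 0.775).

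The controls of these comparisons were not alike. Gata6 in J2WT EpiLCs was 2.32 ± 0.18 above J2WT ESCs on the log2 scale (adjusted p = 2.19e-11, edgeR), where the ESC libraries had 1.43, 1.03 and 1.13 CPM. PclWT ESCs had 0.97, 0.963 and 0.779 CPM, and their EpiLCs overlapped them with a count ratio of 0.648 (0.33 to 1.24). An antisense transcript, 1010001N08Rik, overlaps Gata6, and reads on exons of both were left out of either count.

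Gata4 (ENSMUSG00000021944, chromosome 14, 63198922 to 63271692, minus strand), a GATA factor of primitive, parietal and visceral endoderm, rose in every PRC2 mutant at both stages. In TKO EpiLCs it had 15.8, 14.8 and 15.9 CPM and in QKO EpiLCs 11.3, 14.5 and 11.7 CPM, against 0.656, 1.43 and 1.1 CPM in PclWT EpiLCs. The log2 fold changes were 3.80 ± 0.23 (adjusted p = 0.000198, edgeR) in TKO and 3.49 ± 0.26 (adjusted p = 0.000289, edgeR) in QKO, and QKO lay -0.35 ± 0.11 from TKO (adjusted p = 0.0146, edgeR), under the size threshold. In ESCs the order of the PCL mutants was the other way round. QKO ESCs had 11.6, 13 and 10.5 CPM, TKO ESCs 5.95, 5.43 and 5.55 CPM and PclWT ESCs 1.84, 2.03 and 1.34 CPM. QKO was higher than TKO by 1.04 ± 0.14 (adjusted p = 5.37e-06, edgeR), or 0.97 without QKO ESC replicate 2, below the size threshold. In J2KO ESCs Gata4 had 4.75, 4.58 and 4.58 CPM, against 0.311, 0.645 and 0.126 CPM in J2WT ESCs, a log2 fold change of 3.66 ± 0.27 (adjusted p = 2.25e-10, edgeR). In J2KO EpiLCs it had 3.25, 3.22 and 2.91 CPM, against 1.4, 1.6 and 1.53 CPM in J2WT EpiLCs, a smaller rise of 1.06 ± 0.19 (adjusted p = 2.59e-05, edgeR). Gata4 was below the count minimum in the Pcgf2/4 pair, where 71 counts in KO EpiLCs against 17 in WT EpiLCs gave a ratio of 4.19 (2.44 to 7.58) with no overlap of the libraries.

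Sox7 and Sox17 are SOX factors of the F group that mark primitive endoderm and its parietal and visceral derivatives. Sox7 (ENSMUSG00000063060, chromosome 14, 63943673 to 63950732, plus strand) was at or under 0.428 CPM in all libraries of the J2KO and PclWT groups. TKO EpiLCs had 4.9, 4.84 and 4.26 CPM, against 0.219, 0 and 0.1 CPM in PclWT EpiLCs. With 132 counts against 3 the count ratio was 45.4 (15.2 to 223), and the edgeR log2 fold change was 5.29 ± 0.45 (adjusted p = 0.000518). Sox7 was also high in the PCL mutants as ESCs, with 2.92, 4.02 and 3.04 CPM in TKO and 3.01, 2.54 and 2.72 CPM in QKO, against 0.194, 0.428 and 0.223 CPM in PclWT ESCs. Its rise in TKO ESCs was 3.47 ± 0.37 (adjusted p = 1.31e-07, edgeR). In QKO it was below the count minimum, with a count ratio of 9.89 (4.76 to 23.8) in ESCs and 24.4 (8.04 to 121) in EpiLCs. QKO EpiLCs, at 2.74, 1.47 and 3.16 CPM, were -0.93 ± 0.23 from TKO EpiLCs (adjusted p = 0.00211, edgeR), under the size threshold but past it, at -1.17, without QKO EpiLC replicate 3. J2KO EpiLCs had 5 counts of Sox7 against 40 in J2WT EpiLCs, a ratio of 0.125 (0.0386 to 0.318), and Pcgf2/4 KO EpiLCs 32 against 12 in WT, a ratio of 2.67 (1.34 to 5.7).

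Sox17 (ENSMUSG00000025902, chromosome 1, 4490931 to 4497354, minus strand) rose in EpiLCs of the PCL mutants. It had 5.16, 5.05 and 5.53 CPM in TKO EpiLCs and 3.65, 2.83 and 3.33 CPM in QKO EpiLCs, against 0.875, 0 and 0.1 CPM in PclWT EpiLCs. The log2 fold changes were 3.97 ± 0.64 (adjusted p = 0.00432, edgeR) in TKO and 3.29 ± 0.68 (adjusted p = 0.0113, edgeR) in QKO. The count ratios were 16.8 (8.59 to 37.4) and 10.6 (5.35 to 23.8), against 9 counts in the control. PclWT EpiLC replicate 1 carried nearly all of these 9 counts, and without it the values were 6.34 and 5.69. QKO EpiLCs were -0.70 ± 0.18 from TKO EpiLCs (adjusted p = 0.00373, edgeR), under the size threshold. In ESCs the libraries had 1.11, 0.869 and 1.05 CPM in TKO and 1.04, 1.52 and 0.869 CPM in QKO, against 0.776, 0.749 and 0.779 CPM in PclWT. These ESC groups lay close together, with count ratios of 1.32 (0.731 to 2.4) and 1.47 (0.815 to 2.68). In the J2 pair Sox17 was below the count minimum, with opposite ratios at the 2 stages: 5.16 (2.5 to 12) in J2KO ESCs and 0.361 (0.198 to 0.63) in J2KO EpiLCs. In Pcgf2/4 KO EpiLCs the ratio was 6.52 (3.33 to 14.2), from 65 counts against 10 in WT.

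Foxa2 (ENSMUSG00000037025, chromosome 2, 148042877 to 148046969, minus strand), a forkhead factor of visceral and definitive endoderm, was below the count minimum in every comparison. Its libraries reached 1.69, 2.06 and 2.41 CPM in TKO EpiLCs, against 0.109, 0.102 and 0.1 CPM in PclWT EpiLCs. This was a count ratio of 19.3 (6.27 to 96.3), from 56 counts against 3. No library of another group had more than 0.427 CPM. QKO EpiLCs lay under TKO EpiLCs with a ratio of 0.148 (0.0643 to 0.301). With 9 counts in Pcgf2/4 KO EpiLCs against 3 in WT, a ratio of 3.01 (0.751 to 17.3), and 10 in J2KO EpiLCs against 18 in J2WT, a ratio of 0.557 (0.23 to 1.27), both intervals include equal levels. The libraries of the Pcgf2/4 pair overlapped, while the 3 of J2KO, at 0.121 to 0.259 CPM, lay under the 3 of J2WT, at 0.319 to 0.427 CPM.

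Hnf4a (ENSMUSG00000017950, chromosome 2, 163506808 to 163572910, plus strand), a nuclear receptor of visceral endoderm and liver, differed from the other factors in the group where it was highest. It was highest in J2WT ESCs, at 7.6, 7.35 and 6.61 CPM, where J2KO ESCs had 2.2, 1.98 and 1.92 CPM. In TKO, J2KO and Pcgf2/4 KO EpiLCs its direction was that of Gata6, without a call, and QKO EpiLCs overlapped PclWT EpiLCs. Loss of JARID2 went with a log2 fold change of -1.82 ± 0.14 in ESCs (adjusted p = 5.53e-10, edgeR) and of -0.80 ± 0.22 in EpiLCs (adjusted p = 0.00238, edgeR), the second under the size threshold. In Pcgf2/4 KO EpiLCs it had 6.24, 6.79 and 5.09 CPM, against 2.59, 3.13 and 3.77 CPM in WT EpiLCs, a log2 fold change of 0.95 ± 0.18 (adjusted p = 6.09e-05, edgeR), which passed the size threshold, at 1.09 or 1.05, when WT replicate 3 or KO replicate 3 was left out. Hnf4a stayed at or under 1.28 CPM in all libraries of the PclWT, TKO and QKO groups. In TKO it had a count ratio to PclWT of 3.56 (1.65 to 8.49) in EpiLCs and of 2.55 (1.14 to 6.27) in ESCs, and QKO EpiLCs had a ratio of 0.267 (0.112 to 0.575) to TKO EpiLCs. An antisense gene, Hnf4aos, overlaps Hnf4a, and reads on exons of both were likewise left out.

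Pdgfra (ENSMUSG00000029231, chromosome 5, 75152292 to 75198215, plus strand), the receptor for PDGF that marks primitive endoderm precursors, followed Gata6 in direction in EpiLCs. TKO EpiLCs had 14.7, 14.2 and 16.9 CPM and QKO EpiLCs 7.4, 5.43 and 5.3 CPM, against 1.2, 2.15 and 1.8 CPM in PclWT EpiLCs. The log2 fold changes were 3.10 ± 0.21 (adjusted p = 0.000269, edgeR) and 1.76 ± 0.26 (adjusted p = 0.003, edgeR), and QKO lay -1.36 ± 0.14 below TKO (adjusted p = 5.61e-08, edgeR). In Pcgf2/4 KO EpiLCs it had 3.21, 3.2 and 3.94 CPM, against 1.29, 0.391 and 0.871 CPM in WT, at 2.00 ± 0.29 (adjusted p = 1.17e-06, edgeR). In J2KO EpiLCs it had 0.921, 0.486 and 0.647 CPM, against 3.05, 3.8 and 2.75 CPM in J2WT, at -2.21 ± 0.25 (adjusted p = 1.6e-08, edgeR). In each of these 4 pairs the libraries of the groups did not overlap.

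In ESCs the sign of Pdgfra in the PCL mutants was the other way. TKO ESCs had 1.11, 0.652 and 1.47 CPM and QKO ESCs 0.927, 0.762 and 1.74 CPM, against 3.01, 2.57 and 1.78 CPM in PclWT ESCs. It fell by 1.22 ± 0.32 in TKO (adjusted p = 0.00219, edgeR) and by 1.10 ± 0.32 in QKO (adjusted p = 0.00573, edgeR). These calls rest on single libraries: the values were -0.97 without TKO ESC replicate 2, -0.96 without QKO ESC replicate 1 and -0.89 without QKO ESC replicate 2, all under the size threshold.

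Dab2 (ENSMUSG00000022150, chromosome 15, 6299788 to 6440712, plus strand), the endocytic adaptor, was the most abundant of the 10 per kilobase in PclWT EpiLCs after Amn, at 2.36 against 2.52 RPKM. It rose in TKO EpiLCs, with 44.2, 39.1 and 41.1 CPM against 12, 16.8 and 17.3 CPM in PclWT EpiLCs, at 1.39 ± 0.15 (adjusted p = 0.0012, edgeR). QKO EpiLCs had 16.3, 15.3 and 15.7 CPM, inside the range of PclWT EpiLCs, with a log2 fold change of -0.00 ± 0.16 (adjusted p = 0.988, edgeR) and a count ratio of 1.02 (0.895 to 1.16). QKO was thus -1.43 ± 0.08 below TKO (adjusted p = 4.01e-12, edgeR). In ESCs Dab2 fell in TKO, to 3.73, 3.37 and 3.87 CPM against 14.1, 16.4 and 14.6 CPM in PclWT, by 2.07 ± 0.14 (adjusted p = 2.86e-10, edgeR). QKO ESCs had 7.64, 7.88 and 7.71 CPM, at -0.98 ± 0.12 (adjusted p = 1.14e-06, edgeR), just under the size threshold and past it, at -1.02, without PclWT ESC replicate 1. Here QKO was above TKO by 1.08 ± 0.16 (adjusted p = 2.08e-05, edgeR).

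Loss of JARID2 alone went with less Dab2 at both stages. J2KO ESCs had 0.297, 0.558 and 0.597 CPM, against 4.17, 4.13 and 3.59 CPM in J2WT ESCs, at -3.04 ± 0.24 (adjusted p = 6.45e-10, edgeR). J2KO EpiLCs had 2.58, 3.4 and 2.97 CPM, against 9.2, 8.9 and 10.8 CPM in J2WT EpiLCs, at -1.68 ± 0.13 (adjusted p = 1.51e-11, edgeR). In Pcgf2/4 KO EpiLCs the libraries overlapped those of WT, with 5.58, 7.37 and 9.03 CPM against 6.1, 4.01 and 4.94 CPM, at 0.55 ± 0.18 (adjusted p = 0.00891, edgeR), under the size threshold.

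Cubn (ENSMUSG00000026726, chromosome 2, 13276338 to 13491813, minus strand) and Amn (ENSMUSG00000021278, chromosome 12, 111271095 to 111276426, plus strand) encode the subunits of the cubam receptor: cubilin binds the ligand outside the cell, and amnionless anchors it in the membrane and carries it to the surface. Their RNAs did not move together. TKO EpiLCs had 36.6, 36.3 and 30.8 CPM, against 0.109, 0.614 and 0.701 CPM in PclWT EpiLCs, at 6.09 ± 0.33 (adjusted p = 0.000138, edgeR), and 980 counts against 14 gave a ratio of 72.3 (42.9 to 133). QKO EpiLCs had 5.17, 3.51 and 5.3 CPM, at 3.21 ± 0.43 above PclWT (adjusted p = 0.00217, edgeR, count ratio 9.78, 5.64 to 18.3) and -2.91 ± 0.13 below TKO (adjusted p = 9.59e-14, edgeR). J2KO EpiLCs had 0.921, 0.607 and 0.453 CPM, against 12.2, 14.7 and 12 CPM in J2WT EpiLCs, a 19.2-fold lower level (-4.27 ± 0.18, adjusted p = 3.27e-17, edgeR). Pcgf2/4 KO EpiLCs had 7.66, 7.27 and 7.88 CPM, against 2.68, 2.93 and 3.87 CPM in WT EpiLCs, at 1.28 ± 0.17 (adjusted p = 1.94e-07, edgeR). In ESCs no library of any group had more than 0.428 CPM. A gene model, Gm13270, overlaps Cubn.

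Amn was higher in the PclWT control than in its mutants. TKO ESCs had 1.21, 1.74 and 1.15 CPM and QKO ESCs 0.811, 1.4 and 1.2 CPM, against 7.47, 6.63 and 5.01 CPM in PclWT ESCs, at -2.26 ± 0.24 (adjusted p = 1.1e-07, edgeR) and -2.52 ± 0.25 (adjusted p = 1.43e-07, edgeR). QKO EpiLCs had 1.01, 0.565 and 0.941 CPM, against 5.25, 4.4 and 2.8 CPM in PclWT EpiLCs, at -2.31 ± 0.35 (adjusted p = 0.00346, edgeR). TKO EpiLCs, at 1.51, 2.89 and 2.13 CPM, overlapped PclWT EpiLCs, and their value of -0.97 ± 0.34 did not pass the test (adjusted p = 0.0654, edgeR), but did at -1.20 without PclWT EpiLC replicate 3 (adjusted p = 0.0341, edgeR). In J2KO ESCs Amn had 1.66, 1.3 and 1.33 CPM, against 2.49, 3.35 and 3.59 CPM in J2WT ESCs, at -1.13 ± 0.20 (adjusted p = 5.62e-05, edgeR). J2KO and J2WT EpiLCs overlapped, at -0.24 ± 0.28 (adjusted p = 0.451, edgeR). For Pcgf2/4 KO EpiLCs the count ratio to WT was 0.609 (0.313 to 1.15), and in QKO EpiLCs the ratio to TKO EpiLCs was 0.399 (0.242 to 0.642).

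**Figure D3:**
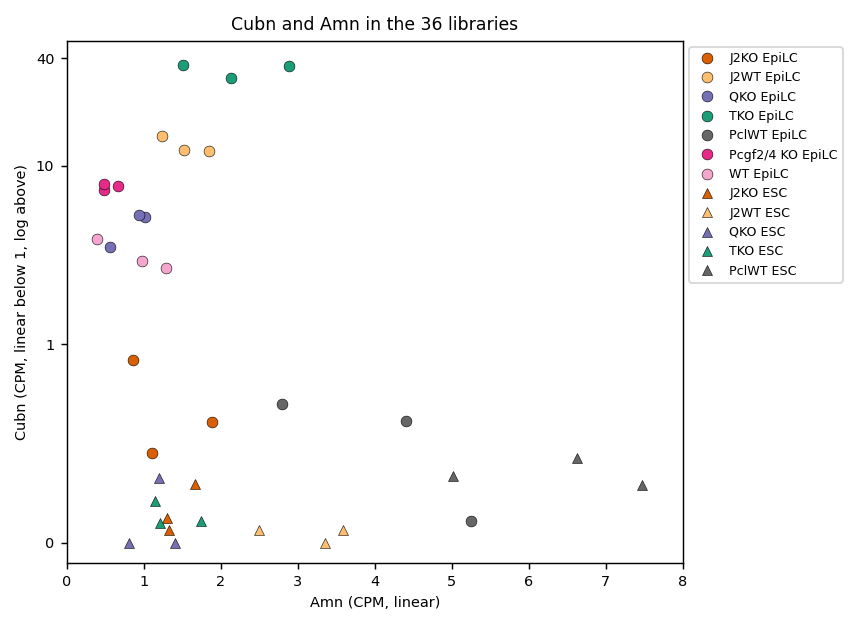
Cubn against Amn in CPM in the 36 libraries (circles EpiLCs, triangles ESCs, colours by genotype). The 3 TKO EpiLC libraries lie at 30.8 to 36.6 CPM of Cubn with 1.51 to 2.89 CPM of Amn, and the PclWT ESC libraries, with 5.01 to 7.47 CPM of Amn, have at most 0.428 CPM of Cubn.

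The promoters of Cubn, Amn and Pdgfra show the sequence at which these transcripts start, shown because Cubn and Pdgfra rose in TKO, QKO and Pcgf2/4 KO EpiLCs and fell in J2KO EpiLCs, whereas Amn fell in QKO EpiLCs. Each window runs from 250 bases before to 50 after the start in RefSeq on GRCm38.p6, and CG dinucleotides are in capitals.
Cubn: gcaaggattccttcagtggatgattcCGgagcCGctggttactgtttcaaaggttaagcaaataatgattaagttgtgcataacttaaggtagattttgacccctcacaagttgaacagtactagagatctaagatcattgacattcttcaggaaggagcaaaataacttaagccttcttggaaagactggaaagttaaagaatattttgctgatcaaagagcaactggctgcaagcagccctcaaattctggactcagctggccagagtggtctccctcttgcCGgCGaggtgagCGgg
Amn: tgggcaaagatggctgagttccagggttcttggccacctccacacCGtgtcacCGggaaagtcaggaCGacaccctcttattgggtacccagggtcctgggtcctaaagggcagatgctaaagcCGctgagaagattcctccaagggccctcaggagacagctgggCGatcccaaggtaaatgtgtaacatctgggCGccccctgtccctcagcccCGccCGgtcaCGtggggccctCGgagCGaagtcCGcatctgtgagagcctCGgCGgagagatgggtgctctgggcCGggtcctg
Pdgfra: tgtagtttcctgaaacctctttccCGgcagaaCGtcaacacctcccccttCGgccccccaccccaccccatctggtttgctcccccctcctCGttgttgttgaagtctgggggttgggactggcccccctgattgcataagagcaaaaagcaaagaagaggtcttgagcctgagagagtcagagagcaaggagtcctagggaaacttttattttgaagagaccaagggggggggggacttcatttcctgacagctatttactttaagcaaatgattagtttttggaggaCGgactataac
The Cubn window (chr2:13491827-13492126, minus strand) and the Pdgfra window (chr5:75152001-75152300, plus strand) hold 5 CG each, a number reached by 62.0% of all 32851 promoter windows. The Amn window (chr12:111270846-111271145, plus strand) holds 15, reached by 34.6% of windows. The median window holds 7. None of the 3 holds the letters GATA with A or T before them and A or G after them on either strand, which 29.8% of all windows do. Of the 10 genes, 6 were matched to RefSeq windows, and 3 of their 10 windows hold these letters.

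The change between stages differed between the control lines. In J2WT cells 6 of 6 tested genes changed in EpiLCs against ESCs, with 30.3% of all genes called: Gata6, Dab2, Pdgfra and Cubn rose, and Hnf4a and Amn fell. Cubn had 12.2, 14.7 and 12 CPM in EpiLCs against 0.0623, 0 and 0.063 CPM in ESCs, 628 counts against 2 and a ratio of 308 (84.9 to 2550). Dab2 rose by 1.30 ± 0.12 (adjusted p = 9.14e-10, edgeR) and Hnf4a fell by 1.39 ± 0.15 (adjusted p = 9.02e-09, edgeR). The genes below the count minimum were also higher in EpiLCs, with no overlap of the libraries. Their count ratios were 4.21 (2.46 to 7.62) for Gata4, 9.81 (3.55 to 37.7) for Sox7, 5.45 (2.65 to 12.6) for Sox17 and 4.41 (1.45 to 17.9) for Foxa2. The calls of Pdgfra (1.08 ± 0.20, adjusted p = 2.81e-05, edgeR) and Amn (-1.01 ± 0.21, adjusted p = 0.000118, edgeR) lay at the threshold, and Pdgfra came to 0.94 without J2WT EpiLC replicate 2 and Amn to between -0.87 and -0.9996 when 1 of 4 libraries was left out (ESC replicates 2 and 3, EpiLC replicates 1 and 2).

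In PclWT cells 0 of 3 tested genes changed between stages (edgeR), where 15.4% of all genes were called. At an unadjusted p under 0.05 the count was 0, and DESeq2 also called 0. Dab2 gave 0.05 ± 0.17, Pdgfra -0.50 ± 0.30 and Amn -0.61 ± 0.27 (adjusted p = 0.855, 0.273 and 0.135, edgeR), and the libraries of the stages overlapped for all 10 genes. Without PclWT EpiLC replicate 1 the values were 0.21, -0.31 and -0.81 (adjusted p = 0.111, 0.362 and 0.00577, edgeR), with Amn under the size threshold. For Sox17 and Amn the overlap came from this replicate alone, at 0.875 and 5.25 CPM. With all libraries the count ratios of Gata4 (0.614, 0.379 to 0.981), Sox17 (0.405, 0.164 to 0.916) and Amn (0.641, 0.505 to 0.811) lay below equal levels. The intervals of the other genes included equal levels. The stage effect itself differed between PclWT and J2WT for 4 of 6 tested genes, with 21.4% of all genes called: Cubn by -7.50 ± 0.94, Gata6 by -2.91 ± 0.46, Pdgfra by -1.56 ± 0.34 and Dab2 by -1.23 ± 0.20 (adjusted p = 6.8e-05, 0.00034, 0.00317 and 0.000483, edgeR). The level of Gata6 in WT EpiLCs of the Pcgf2/4 pair, 2.52 to 2.74 CPM, and that of Cubn, 2.68 to 3.87 CPM, lay between those of J2WT and PclWT EpiLCs.

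In the PCL mutants the stage effect was large. In TKO cells 6 of 8 tested genes rose in EpiLCs against ESCs, with 22.6% of all genes called. Cubn had 980 counts against 4, a ratio of 251 (97.7 to 923), and Gata6 rose by 5.34 ± 0.23, Pdgfra by 3.83 ± 0.20, Dab2 by 3.54 ± 0.11, Sox17 by 2.39 ± 0.23 and Gata4 by 1.49 ± 0.12 (adjusted p = 2.31e-12, 3.31e-11, 4.4e-14, 6.75e-08 and 7.26e-09, edgeR). In QKO cells 5 of 7 rose (Gata6, Sox17, Dab2, Pdgfra and Cubn), with 19.2% of all genes called. Gata4 and Sox7, already high in QKO ESCs, gave 0.10 ± 0.12 and -0.12 ± 0.26 (adjusted p = 0.47 and 0.68, edgeR). In J2KO cells 1 of 5 tested genes was called, Dab2 by 2.64 ± 0.27 (adjusted p = 3.66e-10, edgeR), with 27.2% of all genes called. Gata4 and Pdgfra fell by less than the size threshold, at -0.54 ± 0.15 and -0.885 ± 0.30 (adjusted p = 0.00122 and 0.00846, edgeR). Hnf4a and Amn did not pass the test, at -0.39 ± 0.22 and -0.14 ± 0.27 (adjusted p = 0.104 and 0.65, edgeR). Below the count minimum, count ratios between the stages were 3.99 (1.8 to 10) for Cubn, 0.382 (0.209 to 0.67) for Sox17 and 1.07 (0.616 to 1.85) for Gata6.

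**Figure D4:**
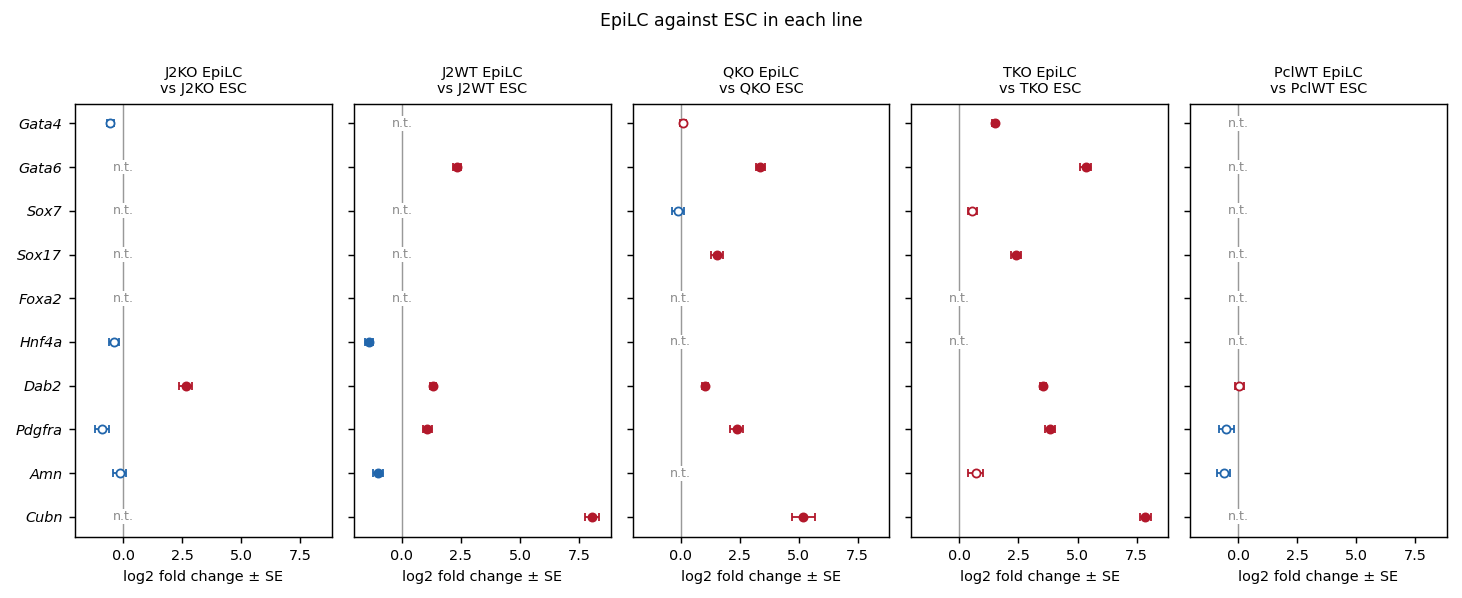
Log2 fold change of each gene in EpiLCs against ESCs within each genotype (edgeR quasi-likelihood test, bars are standard errors). Filled points were called, open points were not, and n.t. marks a gene below the count minimum. Cubn stands at 8.04 in J2WT and 7.87 in TKO, and no gene was called in PclWT.

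Whether a mutant's effect differed between stages was tested as a contrast of 4 groups. For loss of JARID2, 6 of 7 genes differed (11.3% of all genes called). The contrast, EpiLC effect minus ESC effect, was -2.61 ± 0.37 for Gata4, -2.21 ± 0.45 for Gata6, -1.96 ± 0.35 for Pdgfra and -6.07 ± 1.05 for Cubn, and 1.01 ± 0.27 for Hnf4a and 1.35 ± 0.32 for Dab2. For TKO 6 of 8 differed, all with the larger value in EpiLCs (7.57% of all genes called): Cubn by 7.36 ± 0.81, Gata6 by 5.93 ± 0.56, Pdgfra by 4.31 ± 0.38, Sox17 by 3.61 ± 0.77, Dab2 by 3.45 ± 0.20 and Gata4 by 2.14 ± 0.30. Without PclWT EpiLC replicate 1 the value of Sox17 was 5.98 and that of Cubn 6.95. For QKO 2 of 5 differed (7.25% of all genes called), Gata6 by 3.96 ± 0.45 and Pdgfra by 2.87 ± 0.44. Sox7, Sox17, Foxa2, Hnf4a and Cubn were below the count minimum in the QKO contrast and not tested. Pdgfra and Dab2 in TKO thus lay below the control in ESCs and above it in EpiLCs.

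The effects of losing the PCL proteins and of losing JARID2 were set against each other in the same way. In EpiLCs the TKO and J2KO effects differed for 8 of 9 genes tested (22.6% of all genes called), all higher in TKO, with Cubn at 10.40 ± 0.37, Gata6 at 8.65 ± 0.41 and Gata4, which rose in both, at 2.79 ± 0.25 (adjusted p = 5.3e-09, 4.93e-08 and 6e-06, edgeR). Amn was the exception at -0.70 ± 0.49 (adjusted p = 0.277, edgeR). QKO and J2KO differed for 7 of 8 genes (21.4% of all genes called), with Gata6 at 7.61 ± 0.38, Cubn at 7.52 ± 0.45 and Amn at -2.02 ± 0.51 (adjusted p = 1.04e-07, 3.47e-07 and 0.00708, edgeR). These contrasts span 2 lines, whose EpiLC controls differ as given above. In ESCs the TKO and J2KO effects differed for 3 of 5 genes (25.2% of all genes called), with Hnf4a at 3.12 ± 0.50, Gata4 at -1.99 ± 0.40 and Amn at -1.12 ± 0.35. The QKO and J2KO effects also differed for 3 of 5 (26.2% of all genes called), with Dab2 at 2.05 ± 0.27, Hnf4a at 1.78 ± 0.68 and Amn at -1.39 ± 0.36. The Pcgf2/4 KO effect was smaller than that of QKO in EpiLCs for 3 of 8 genes (15.3% of all genes called): Gata6 at -2.35 ± 0.34, Cubn at -1.94 ± 0.45 and Gata4 at -1.44 ± 0.44 (adjusted p = 0.000278, 0.00582 and 0.024, edgeR). Sox17 stood at -0.64 ± 0.98 here (adjusted p = 0.649, edgeR) and at -3.02 without PclWT EpiLC replicate 1 (adjusted p = 0.0133, edgeR). The controls differed in this contrast too: WT and PclWT EpiLCs averaged 2.61 and 0.587 CPM of Gata6 and 3.16 and 0.475 CPM of Cubn. For Gata4 they averaged 0.542 and 1.06 CPM. Levels in Pcgf2/4 KO and QKO EpiLCs were 10.3 and 12.4 CPM of Gata6 and 2.27 and 12.5 CPM of Gata4. Cubn was higher in Pcgf2/4 KO than in QKO EpiLCs, at 7.6 against 4.66 CPM.

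Other genes of the endoderm program were taken from lists. For the list counts here and below, the shares of all genes called in EpiLCs were 14.1% in TKO and 13.7% in QKO. They were 8.82% in J2KO and 5.83% in Pcgf2/4 KO EpiLCs. In ESCs they were 13.8% in TKO and 13.3% in J2KO, and between stages in PclWT cells 15.4%. Of 12 further endoderm transcription factors, 9 were tested in TKO EpiLCs against PclWT EpiLCs, and 3 rose and 1 fell (median 0.53). Among those that rose, Foxq1 had 7.34 against 0.94 CPM (2.90 ± 0.29, adjusted p = 0.000825, edgeR) and Foxa1 5.63 against 1.62 CPM (1.74 ± 0.27, adjusted p = 0.00371, edgeR). In QKO EpiLCs 1 of 7 rose (Foxa1) and 2 fell (Sox18 and Foxa3), with a median of -0.17. In J2KO EpiLCs 1 of 5 rose (Sox18), and the 3 tested in Pcgf2/4 KO EpiLCs had a median of 0.36. QKO EpiLCs lay below TKO EpiLCs in Foxq1 (1.48 against 7.34 CPM).

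Of 30 genes for uptake, secretion and the surface of endoderm, 19 were tested in TKO EpiLCs, of which 3 rose and 2 fell (median -0.09). The tissue factor pathway inhibitor Tfpi had 24.1 against 5.27 CPM (2.15 ± 0.14, adjusted p = 0.000238, edgeR) and the granule proteoglycan Srgn 4.11 against 0.904 CPM, while the homeobox gene Rhox5 fell to 50 against 158 CPM in PclWT. In QKO EpiLCs 1 of 17 rose (Tfpi, 32.4 against 5.27 CPM) and 2 fell, in J2KO EpiLCs 2 of 19 rose and 4 fell, and in Pcgf2/4 KO EpiLCs 1 of 16 rose (Tfpi) and 1 fell (Stra6). Lrp2, the uptake receptor megalin that works with cubilin, rose between stages in J2WT cells, to 256 CPM in EpiLCs against 23.8 CPM in ESCs (3.45 ± 0.06, adjusted p = 1.63e-23, edgeR). In ESCs it fell in the PCL mutants, with 12.1 CPM in TKO and 18.5 CPM in QKO, against 94.7 CPM in PclWT (-3.00 ± 0.14 and -2.36 ± 0.13, adjusted p = 1.21e-12 and 1.16e-10, edgeR).

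Basement membrane genes, which parietal endoderm makes in quantity, rose in TKO EpiLCs in 5 of 7 (median 1.06) and in QKO EpiLCs in 4 of 7 (median 1.13). Col4a2 had 57.3 CPM in TKO and 37.5 CPM in QKO, against 11.5 CPM in PclWT EpiLCs. In J2KO EpiLCs 1 of 7 fell (Lama1, 3.08 against 13.1 CPM), and in Pcgf2/4 KO EpiLCs 1 fell (Lamb1, 63.9 against 169 CPM). In PclWT cells 6 of the 7 were called lower in EpiLCs than in ESCs. The same stage comparison called 4 lower in each of J2WT, J2KO and TKO cells, with 1, 1 and 2 higher. In QKO cells it called 3 lower and 0 higher. The shares of all genes called between stages were 30.3% in J2WT, 27.2% in J2KO, 22.6% in TKO and 19.2% in QKO cells.

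Of 12 pluripotency and FGF signalling genes, 7 rose in TKO EpiLCs (median 1.96) and 9 in QKO EpiLCs (median 1.98). Fgf4, the ligand that drives primitive endoderm in the blastocyst, had 123 CPM in TKO and 248 CPM in QKO, against 25.7 CPM in PclWT EpiLCs. Nanog, the epiblast factor that GATA6 opposes, was also higher, at 199 CPM in TKO and 440 CPM in QKO, against 102 CPM in PclWT EpiLCs. Dusp6, a target and inhibitor of ERK signalling, had 319 CPM in TKO against 54.7 CPM in PclWT. In J2KO EpiLCs 3 of 12 rose (Otx2, Klf4 and Esrrb) and in Pcgf2/4 KO EpiLCs 3 rose (Klf4, Nanog and Esrrb).

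Several of the 10 genes are also expressed outside primitive endoderm, so markers of other cells were measured beside them. Of 12 primitive streak and definitive endoderm markers 5 were tested in TKO EpiLCs, where Lhx1 (5.93 against 0.101 CPM in PclWT) and Cxcr4 (3.53 against 1.29 CPM) rose and Lefty1 fell. Their summed level was 119 to 145 CPM in TKO and 81.5 to 94.2 CPM in QKO, against 343 to 596 CPM in PclWT EpiLCs, most of it Lefty1. Eomes had 8.04 CPM in TKO against 8.22 CPM in PclWT EpiLCs, Mixl1 1.78 against 1.79 CPM, T 1.36 against 0.488 CPM and Gsc 0.622 against 0.314 CPM, and Cer1 was at 0 in both. In QKO EpiLCs 1 of 3 rose (Cxcr4) and 1 fell, and in J2KO and Pcgf2/4 KO EpiLCs, where 3 and 2 were tested, sums were 188 to 204 against 120 to 125 CPM and 45 to 51.5 against 53.2 to 58 CPM. In TKO ESCs 3 of 6 rose, Eomes among them (39.6 against 12.4 CPM), and 1 fell.

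Trophoblast markers summed to 24.9 to 26.1 CPM in TKO EpiLCs and 13.4 to 17.6 CPM in QKO EpiLCs, against 22.1 to 28.5 CPM in PclWT. In TKO EpiLCs 2 of 4 tested rose (Cdx2 and Hand1) and 1 fell, and in QKO EpiLCs 0 of 3 rose and 1 fell. In J2KO ESCs 4 of 5 fell, with a sum of 20.2 to 21.9 CPM against 52.7 to 52.9 CPM in J2WT ESCs, and Cdx2 had 0.307 against 5.41 CPM. Fibroblast and feeder markers summed to 854 to 937 CPM in TKO and 1450 to 1610 CPM in QKO, against 287 to 937 CPM in PclWT EpiLCs, most of it Fn1, and in each mutant 1 of 5 was called, Col1a1, which was lower. In Pcgf2/4 KO EpiLCs 3 of 6 fell (Dcn, Col1a2 and Thy1) and 1 rose, with a sum of 742 to 761 CPM against 594 to 630 CPM in WT. Of 7 neuroectoderm markers, 2 of 3 tested rose in TKO EpiLCs, and in QKO EpiLCs 1 of 3 rose and 1 fell. In J2KO EpiLCs 1 of 4 rose and 1 fell, and in Pcgf2/4 KO EpiLCs 1 of 3 fell. Sox1 rose in TKO and QKO EpiLCs, with 87.3 and 48.6 CPM against 3.12 CPM in PclWT. It fell in J2KO EpiLCs, with 5.55 against 22.4 CPM in J2WT, and in Pcgf2/4 KO EpiLCs, with 8.53 against 27.9 CPM in WT. The part of these cells in the results was not tested.

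The genes whose pattern was most like that of each of the 10 were ranked by Pearson's r of log2(CPM + 1) over the 12 group means, among 13903 genes with a mean of at least 1 CPM. Groups share lines, stages and sequencing depth, so r is a description. Gata6 and Cubn were each nearest to the other at 0.928, and the r of Gata6 with Pdgfra was 0.887, just after Rap2c at 0.888. Pdgfra was nearest to the zinc finger gene Zeb2 at 0.926 and to Foxq1, also at 0.926, and Sox17 to Zeb2 at 0.907 and Pdgfra at 0.882. Gata4 was nearest to Kansl3 (0.938), Sox7 to Tagap1 (0.95), Hnf4a to Arhgef38 (0.94) and Dab2 to Gmip (0.876), none of them endoderm list genes. Amn was nearest to Hacd3 (0.961), and its r with Cubn, its partner in the receptor, was -0.298. Foxa2 was under the level needed. Hnf4a had a negative r with most of the other genes (Gata4, Sox7, Sox17, Dab2, Pdgfra and Amn), down to -0.548 with Gata4.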

How the data were processed

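RNA was measured in 36 libraries of 12 groups, assigned by label. From poly(A) libraries aligned with STAR to GRCm38, the authors deposited, for each library, unnormalised read counts by gene. The column without strand was used, since the kit does not mark strand (the first strand column held 50.379% to 51.205% of stranded counts), and reads that overlap 2 genes, antisense partners included, were counted to neither. Between 23.223% and 30.239% of reads in a library lay in no single gene and were left out. Symbols and positions came from a GENCODE annotation of GRCm38, which named 55141 of 55401 IDs. Promoter windows came from RefSeq.

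Each comparison was fitted on its own libraries with edgeR 4.0.16 (quasi-likelihood test, TMM) in R 4.3.3, over genes with a mean normalised count of at least 15, with Benjamini-Hochberg adjustment over all of them. A call needed an adjusted p under 0.05 with a log2 fold change beyond 1 in either direction. Standard errors were derived from the F statistic. CPM used TMM factors over all libraries, and RPKM the union of exons. Alternatives were other size factors (RLE), no count filter, a minimum of 5, DESeq2 1.42.0, a replicate block, one fit of all 36 libraries, and each library left out. The steps were tested on simulated data. All 10 genes were examined in every comparison, but values of genes below the count minimum are given only in part. From the other lists, up to 3 called genes per list with the largest change and no overlap of libraries were named, besides defining markers given as levels, Lrp2 and the genes nearest in pattern. The genes and the lists were chosen with earlier results of these data known.

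The main fits did not pair libraries by replicate number, and the replicate block was an alternative only. In PclWT EpiLCs against PclWT ESCs, deviations of same-numbered libraries from their group means correlated at 0.451, 0.241 and 0.205 (across genes). In no other comparison were all 3 over 0.1.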

Additional observations from a re-analysis of the deposited data

Results flagged for a closer look

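Effects that differed between stages or lines by a tested contrast of 4 groups are listed here. They are log2 differences from edgeR's quasi-likelihood test, the adjusted p-values are over all genes, and each was called. For JARID2 loss, EpiLC effect minus ESC effect, the values were -2.61 for Gata4 (adjusted p = 6.57e-07), -2.21 for Gata6 (0.000123), 1.01 for Hnf4a (0.00231), 1.35 for Dab2 (0.00065), -1.96 for Pdgfra (2.6e-05) and -6.07 for Cubn (1.56e-05). Hnf4a came to 0.99 with no count filter, inside the size threshold. For TKO the same contrast gave 2.14 for Gata4 (0.000584), 5.93 for Gata6 (5.25e-05), 3.61 for Sox17 (0.0083), 3.45 for Dab2 (1.92e-06), 4.31 for Pdgfra (3.91e-05) and 7.36 for Cubn (0.000146). Without PclWT EpiLC replicate 1, an alternative added after the data were seen, Sox7 (2.72) and Amn (1.497) also passed, and Sox17 came to 5.98. For QKO it gave 3.96 for Gata6 (0.000153) and 2.87 for Pdgfra (0.00117). Dab2 came to 1.002 without QKO EpiLC replicate 2, past both thresholds.

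The stage effect in PclWT minus that in J2WT was -2.91 for Gata6 (0.00034), -1.23 for Dab2 (0.000483), -1.56 for Pdgfra (0.00317) and -7.50 for Cubn (6.8e-05). The PclWT EpiLC libraries of this contrast had 0.896 CPM of Fgf5, against 58.3 CPM in J2WT EpiLCs, and 3.39 CPM of Otx2, against 117 CPM. The part of these differences in these values was not tested.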

How the results depend on the processing

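Of 1255 values of single genes under another setting, 1227 kept their call and 0 reversed. Of 213 counts of called genes, 188 stayed within 1.5 times. With no count filter the counts were 7 in QKO against TKO EpiLCs, 6 in the Pcgf2/4 pair, 10 in the J2WT and 3 in the J2KO stage comparison, 5 in the QKO stage contrast, 5 in both ESC contrasts with J2KO, and 7 in the PclWT against J2WT stage contrast. With a minimum of 5 they were 7, 6 and 3 in the QKO against TKO EpiLC, Pcgf2/4 and J2KO stage comparisons, and 4 (QKO stage), 5 (TKO and J2KO, ESCs) and 6 (QKO and J2KO, ESCs) in the contrasts. With all 36 libraries in 1 fit they were 6 (Pcgf2/4), 3 (J2KO stage), 4 (QKO stage contrast), 6 and 7 (TKO and QKO with J2KO, ESCs), 5 (Pcgf2/4 with QKO) and 7 (PclWT with J2WT stage). These settings change how many genes are tested. With each library left out the counts ran from 3 (TKO ESC replicate 2 out) to 5 in TKO ESCs, 2 to 4 in QKO ESCs, 1 (QKO ESC replicate 2 out) to 2 in QKO against TKO ESCs, 3 to 6 in QKO against TKO EpiLCs, 3 to 5 (WT replicate 3 out) in the Pcgf2/4 pair, 4 to 7 in the J2WT and 1 to 2 (J2KO EpiLC replicate 1 out) in the J2KO stage comparison. The causes were not tested.

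The replicate block changed no call: 80 of 80 values of single genes kept theirs, with 0 of 3 genes called in PclWT EpiLCs against ESCs. Without PclWT EpiLC replicate 1, TKO EpiLCs had 7 and QKO EpiLCs 6 genes called, as before. The other lists were tested under the main setting alone. Depth limits genes under about 1 CPM, for which counting intervals span several-fold, and Foxa2 was not tested in any pair.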
